A study of Drosophila melanogaster with 24 samples.

Results

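Samarkand and Canton-S, 2 wild-type stocks of the fruit fly Drosophila melanogaster, were compared for whole-animal messenger RNA at each of 2 stages separately. The comparison rests on 12 of the 24 arrays of the series, 3 for each strain at each stage, chosen by the strain and stage in the labels, and on all 16637 FlyBase transcripts of the array. The 4 groups were Canton-S late larvae, Samarkand late larvae, Canton-S prepupae and Samarkand prepupae. Late larvae, labelled 18BPF, were late in the last larval instar, and prepupae, labelled PF, were white prepupae, which have just formed the pupal case. The labels gave no unit for that number, no sex or agent that set the groups apart, and no transgene or mutation for either stock. All groups shared constant lighting, 25 °C and food with 0.05% bromophenol blue, a dye used to follow emptying of the larval gut. Each replicate was a pool of about 120 mg of frozen animals, 60 to 80 individuals depending on the strain, and was hybridised to 1 single-colour array. The other arrays of the series held Oregon-R and Zimbabwe-109, whose levels are given beside some results.

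The change from larva to prepupa is driven by a pulse of the steroid hormone ecdysone. The animal stops feeding, empties its gut, fixes itself with salivary glue and turns its cuticle into the puparium, while larval tissues such as fat body, gut and salivary gland switch their programmes or prepare to die. Wild-type stocks differ in many expressed genes, either throughout development or at one stage. Here the strains were tested within each stage, and the 2 differences were then tested against each other. In whole animals, fewer cells of a type and less RNA per cell cannot be told apart. The array reads hybridisation to fixed probes, so a different RNA level and a different match of a strain's sequence to the probes cannot be told apart here either. The strains' RNAs were also prepared separately, so strain and extraction cannot be told apart.

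Levels below are log2 intensities after quantile normalization over all 24 arrays, a step that gives every array the same distribution. On this scale the median transcript stood at 11.34, the dimmest 1% below 9.03 and the brightest 10% above 12.64. As deposited, median intensities ran from 1936 to 3169 in the 12 arrays. Precision is limited by the 3 arrays a group. The first axis of variation of the 12 arrays held 67.3% of the variance and separated the stages, and the second, with 21.8%, separated the strains. The third held 4.66%, and Canton-S prepupal replicate 1 lay farthest out on it. A transcript was called when limma's moderated test gave a Benjamini-Hochberg adjusted p under 0.05 over all transcripts. A difference is Samarkand minus Canton-S, so negative values mean a lower level in Samarkand. Of the 16637 identifiers, 16 could be given 1 gene name and 28 were listed under several genes. No tissue marker of the list drawn up for whole animals had a name, so the animals' tissues were not checked against markers.

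About 1 in 2 transcripts was called at each stage, mostly with small differences. In late larvae 7999 transcripts were called, 48.1% of those tested, 4294 higher (25.8%) and 3705 lower (22.3%) in Samarkand. In prepupae 8609 were called, 51.7%, with 4542 higher (27.3%) and 4067 lower (24.4%). The median size of the difference over all transcripts was 0.20 in larvae and 0.22 in prepupae on the log2 scale. Differences of at least 2-fold were rare, at 154 transcripts in larvae (0.926%) and 149 in prepupae (0.896%). More of them were lower in Samarkand, 98 (0.589% of all transcripts) against 56 (0.337%) in larvae and 87 (0.523%) against 62 (0.373%) in prepupae. In prepupae this did not hold without Samarkand prepupal replicate 1, with 79 lower and 82 higher, or without replicate 3, with 75 in each direction. The direction of these counts also depended on the scaling. Without scaling, which shifted the median difference of all transcripts to 0.36 in larvae and 0.16 in prepupae, 93.4% and 68.2% of the calls were higher in Samarkand, and 2-fold differences were 443 higher and 55 lower in larvae and 143 higher and 63 lower in prepupae. With median centring 43.3% and 45.2% of the calls were higher, against 53.7% and 52.8% after quantile normalization, and with a common spread added to the centring 41.3% and 42.1%. With median centring the 2-fold differences were 68 higher and 253 lower in larvae and 69 higher and 151 lower in prepupae.

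When the calls of both stages were sorted, the shared class was the largest of the called classes, though not without scaling, where 2878 transcripts were shared and 4944 called in larvae only. Of all transcripts, 5738 (34.5%) were called at both stages with the same sign, 3289 higher and 2449 lower in Samarkand. A further 2070 (12.4%) were called in larvae only, 2680 (16.1%) in prepupae only, 191 (1.15%) at both stages with opposite signs, and 5958 (35.8%) at neither. Calls at 1 stage do not by themselves show that the stages differ. The prepupal difference was therefore tested against the larval one, and 1104 transcripts (6.64%) passed, 693 (4.17%) with a positive and 411 (2.47%) with a negative change of the difference from larva to prepupa. Of these, 81 (0.487%) changed by at least 2-fold. Among them were 397 of the larva-only transcripts (19.2% of that class), 326 of the prepupa-only transcripts (12.2%), 189 of the shared calls (3.29%), all 191 with opposite signs and 1 called at neither stage. For the other larva-only and prepupa-only transcripts no difference between stages was shown. The same sign was found at the other stage in 74.4% of the larva-only and 79.4% of the prepupa-only transcripts. Among transcripts called at neither stage the share was 67.4%. Over all transcripts, which include the class that shares its sign by definition, it was higher than in both 1-stage classes. The test between stages gave 693 transcripts without Samarkand larval replicate 3 and 729 without Canton-S larval replicate 4, and the larva-only class held 1284 without Samarkand larval replicate 3. Without scaling the test between stages gave 205 transcripts, 90 positive and 115 negative.

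**Figure D1:**
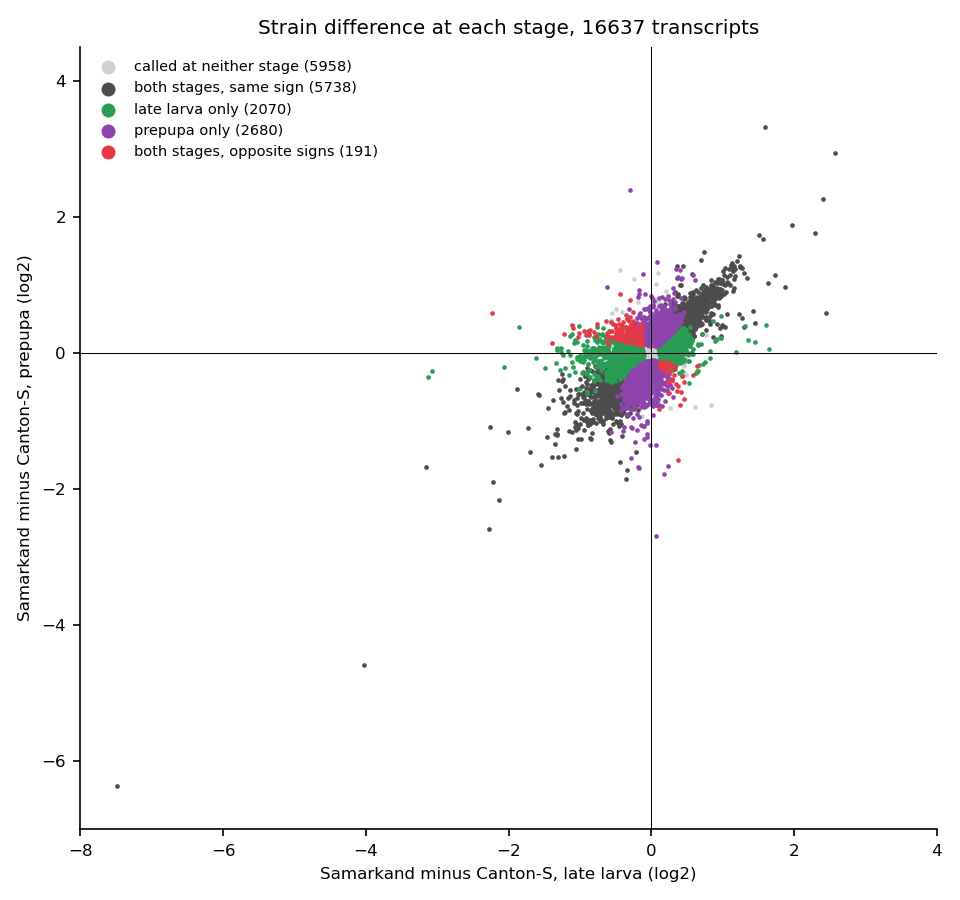
Difference between Samarkand and Canton-S in late larvae (horizontal axis, log2) and in prepupae (vertical axis, log2) for 16637 transcripts, 1 point each, coloured by the stage at which limma called it. The shared calls lie along the rising diagonal, the larva-only calls along the horizontal line, the prepupa-only calls along the vertical line, and 2 transcripts lie far to the lower left.

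Many of the strong differences were present at both stages. Of the 154 larval transcripts with a 2-fold difference, 111 were called with the same sign in prepupae. That share was close to the one among all larval calls, 5738 of 7999. At both stages, 66 were 2-fold with the same sign, which is 42.9% of the larval and 44.3% of the prepupal list. The 4 described here, the 2 with the largest difference in each direction, had no gene name and are given by identifier. FBtr0072463 read 15.36, 15.32 and 15.39 in Canton-S larvae and 7.86 in each of the 3 Samarkand larval arrays. In prepupae it read 14.66, 14.76 and 14.87 in Canton-S and 9.30, 7.86 and 8.03 in Samarkand. The strains were far apart at both stages, by -7.49 ± 0.22 in larvae and -6.36 ± 0.22 in prepupae (SE, n = 3 against 3, limma adjusted p = 3.67e-15 and 8.17e-14). Oregon-R and Zimbabwe-109 stood with Canton-S, at means of 15.32 and 15.40 in larvae and 14.07 and 15.09 in prepupae, so Samarkand alone was low.

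As deposited, the intensities of FBtr0072463 in Canton-S were 44752, 46964 and 48733 in larvae and 27713, 33753 and 28567 in prepupae. In Samarkand they were 215, 199 and 204 in larvae and 825, 195 and 227 in prepupae. The lowest value of any transcript on these 12 arrays lay between 156 and 198, so all Samarkand arrays but prepupal replicate 1 were close to the bottom of the scale. The table carries no detection call, and a fold against such a level depends on the bottom of the scale rather than on a measured amount of RNA.

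FBtr0072541 showed the same layout at a lower level. It read 11.86, 12.06 and 11.95 in Canton-S larvae and 7.93 in each Samarkand larval array. The prepupal values were 12.18, 12.60 and 12.63 in Canton-S and 7.86, 7.93 and 7.86 in Samarkand. The difference was -4.03 ± 0.13 in larvae and -4.59 ± 0.13 in prepupae (SE, limma adjusted p = 1.36e-14 and 2.88e-15). Its level in Oregon-R and Zimbabwe-109 was between 12.63 and 13.28 on each of their 12 arrays, above every Canton-S array of the same stage.

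The reverse case, near the bottom in Canton-S, was found for FBtr0080868. It read 7.93, 7.86 and 8.08 in Canton-S larvae against 10.49, 10.59 and 10.50 in Samarkand larvae. In prepupae the values were 7.86, 7.93 and 7.93 against 10.77, 10.98 and 10.80. Samarkand was higher by 2.57 ± 0.13 and 2.94 ± 0.13 (SE, limma adjusted p = 1.99e-11 and 3.1e-12), and Oregon-R and Zimbabwe-109 had means between 10.59 and 10.99, close to Samarkand. FBtr0087451 was also low in Canton-S alone, but to a different degree at each stage. It read 10.69, 10.49 and 10.48 in Canton-S larvae and 12.14, 12.11 and 12.19 in Samarkand larvae. Prepupae had 8.49, 8.93 and 8.50 in Canton-S and 12.06, 11.88 and 11.96 in Samarkand. The gap widened from 1.60 ± 0.09 to 3.32 ± 0.09, and this change of 1.73 ± 0.13 passed the test between stages (limma adjusted p = 5.66e-08). Samarkand, Oregon-R and Zimbabwe-109 had means between 11.86 and 12.28 at both stages, while Canton-S was at 10.55 in larvae and 8.64 in prepupae. Differences between the stages within a strain are given here and below as values, with no test.

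**Figure D2:**
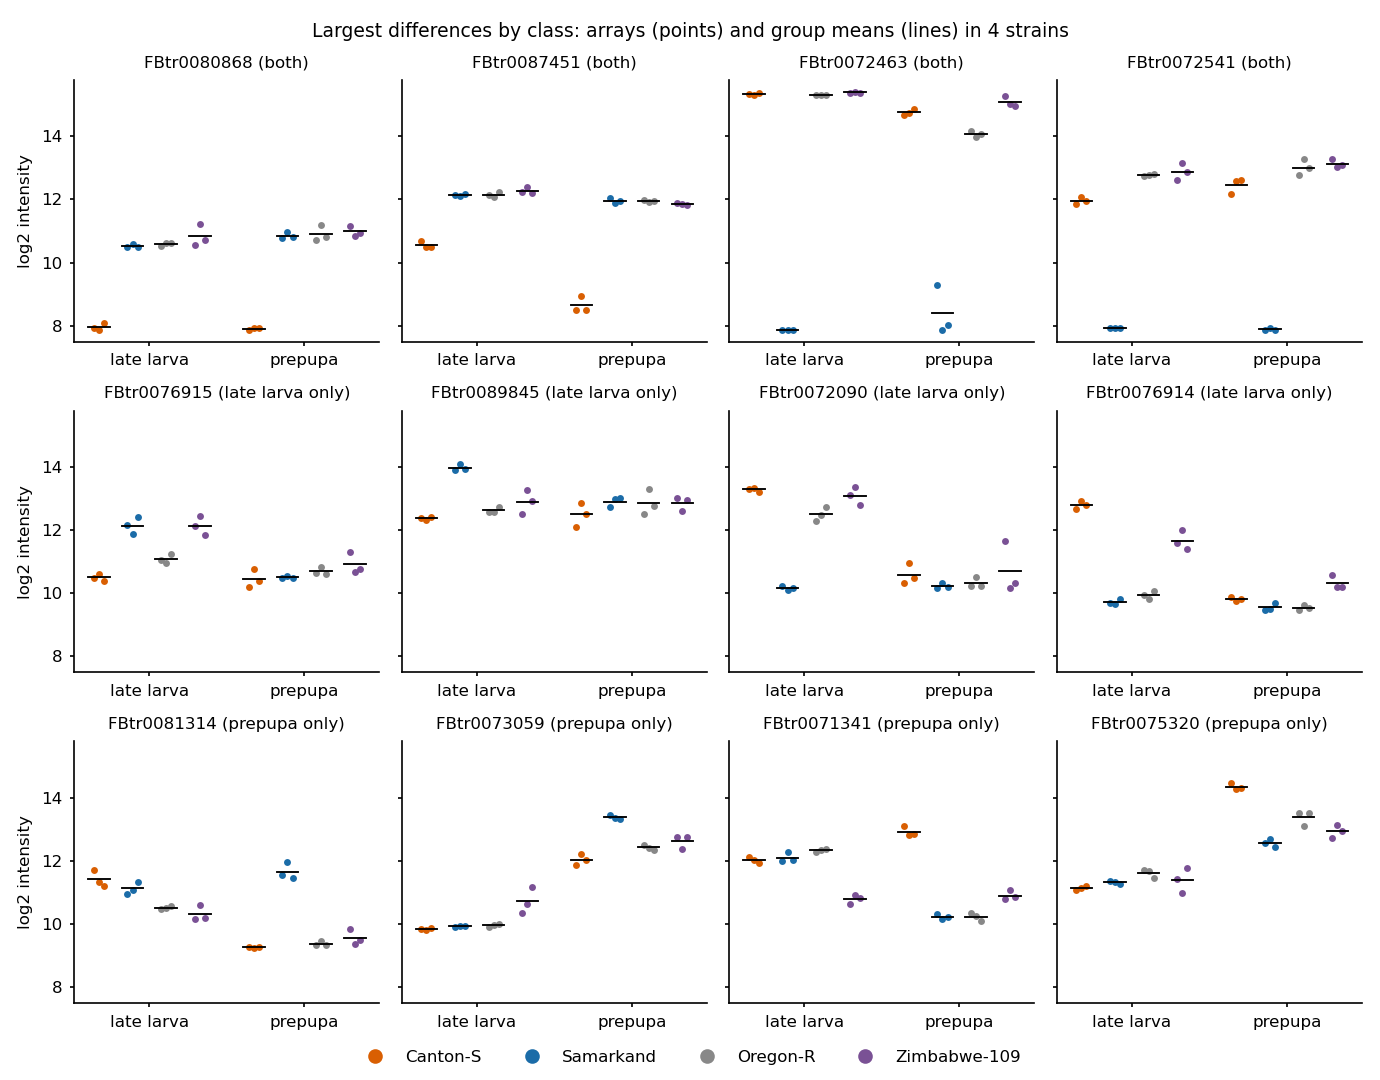
Log2 intensity (vertical axis, 1 scale for all panels) of 12 transcripts in late larvae and prepupae of 4 strains. They are the 2 with the largest difference in each direction in each class, among those whose arrays do not overlap and, for the classes called at 1 stage, that passed the test between stages. Points are arrays and lines are means of 3 arrays. In the top row 1 strain stands apart at both stages, in the middle row Samarkand and Canton-S separate in larvae and lie close in prepupae, and in the bottom row they lie close in larvae and separate in prepupae.

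Of the 2 transport genes, 1 was called, at both stages. Over all transcripts 48.1% were called in larvae, 51.7% in prepupae and 34.5% at both stages with the same sign. NaPi-III, which encodes a sodium-dependent phosphate transporter, was lower in Samarkand at both and had the largest difference among the 16 named transcripts. It read 12.59, 12.54 and 12.64 in Canton-S larvae and 11.46, 11.39 and 11.39 in Samarkand larvae, a difference of -1.18 ± 0.12 (SE, limma adjusted p = 3.05e-07), which is 2.26-fold. In prepupae it read 11.97, 11.54 and 11.74 in Canton-S and 11.11, 10.85 and 10.95 in Samarkand, a difference of -0.78 ± 0.12 (limma adjusted p = 3.27e-05), which is 1.72-fold. The arrays of the strains did not overlap at either stage, which held for 70.5% of all transcripts in larvae and 55.5% in prepupae. The change of the difference was 0.40 ± 0.17 and did not pass the test between stages (limma adjusted p = 0.203, 0.0136 with median centring). Oregon-R and Zimbabwe-109 had larval means of 11.11 and 11.33, nearer to Samarkand. Fatp1, a fatty acid transport protein, stood at 12.86 ± 0.04 (SD, n = 3) in Canton-S and 12.58 ± 0.19 in Samarkand larvae, and at 11.56 ± 0.20 and 11.26 ± 0.08 in prepupae. Its arrays did not overlap at either stage, but the differences of -0.28 ± 0.13 and -0.31 ± 0.13 did not pass (limma adjusted p = 0.083 and 0.0554). They passed when only the 12 arrays were fitted (adjusted p = 0.0424 and 0.0269) and with median centring (3.68e-05 and 0.0262), and the prepupal one also with a replicate block (0.033).

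The 2 named ubiquitin genes, rdx and Uba1, were called in prepupae, as lower in Samarkand, and not in larvae. Over all transcripts 24.4% were called as lower in prepupae, and 16.1% were called in prepupae only. The transcript of rdx, a substrate adaptor of a ubiquitin ligase, read 13.61, 13.54 and 13.56 in Canton-S prepupae and 13.25, 13.18 and 13.30 in Samarkand prepupae. The 2 sets of arrays did not overlap, and the difference was -0.33 ± 0.07 (SE, limma adjusted p = 0.000485). In larvae it was -0.16 ± 0.07 without overlap (adjusted p = 0.0591), and it passed without Canton-S larval replicate 3 (-0.21, adjusted p = 0.0207) and with median centring (-0.70, adjusted p = 1.76e-06). Uba1, the enzyme that activates ubiquitin for all ligases, read 13.81, 13.49 and 13.54 in Canton-S prepupae and 13.31, 13.25 and 13.26 in Samarkand prepupae, a difference of -0.34 ± 0.08 (limma adjusted p = 0.00189). In larvae the strains overlapped and differed by 0.03 ± 0.08 (adjusted p = 0.784), or by -0.55 with median centring (adjusted p = 3.11e-05). The change between stages, -0.37 ± 0.12 for Uba1 and -0.17 ± 0.09 for rdx, did not pass (limma adjusted p = 0.0605 and 0.369), though that of Uba1 did with a replicate block (adjusted p = 0.022) and without Canton-S prepupal replicate 2 (adjusted p = 0.0322).

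Among the 4 chromatin genes 1 was called in larvae and 0 in prepupae by limma, where 48.1% and 51.7% of all transcripts were. His4r, a replacement histone H4, read 12.35, 12.45 and 12.27 in Canton-S larvae and 12.51, 12.68 and 12.56 in Samarkand larvae. All Samarkand arrays lay above, by 0.22 ± 0.08 (SE, limma adjusted p = 0.0218). The call did not hold without scaling (adjusted p = 0.176), without Canton-S larval replicate 1 or 4 or without Samarkand larval replicate 3 (adjusted p = 0.0553, 0.0996 and 0.114), and the sign turned with median centring (-0.14, adjusted p = 0.171). Histone H4 is encoded by many gene copies, and the sources used here do not say whether the probes of this transcript separate them. In prepupae the arrays overlapped and the difference was 0.03 ± 0.08 (adjusted p = 0.778), while median centring gave -0.43, which passed (adjusted p = 0.00026). SuUR, which suppresses replication of parts of the polytene chromosomes, differed by 0.12 ± 0.08 in larvae and 0.11 ± 0.08 in prepupae, and with median centring by -0.26 and -0.27, which passed (adjusted p = 0.00432 and 0.00282). The histone deacetylase HDAC3 differed by -0.09 ± 0.12 and -0.27 ± 0.12, and kis, a chromatin remodeller, by -0.12 ± 0.12 and -0.14 ± 0.12. Median centring gave -0.58 and -0.43 for kis, which passed (adjusted p = 0.000345 and 0.00433). The differences of SuUR, HDAC3 and kis did not pass in the fit of all arrays (limma adjusted p from 0.0698 to 0.598), while HDAC3 in prepupae passed with a replicate block (adjusted p = 0.0458), with median centring (0.0457) and without Canton-S prepupal replicate 2 or Samarkand prepupal replicate 1 (adjusted p = 0.0353 and 0.0305).

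Of the genes of membrane skeleton and basement membrane, neither was called, where 48.1% of all transcripts were in larvae and 51.7% in prepupae. The alpha-Spec transcript, for alpha spectrin, stood at 12.13 ± 0.12 (SD, n = 3) in Canton-S and 11.78 ± 0.17 in Samarkand larvae, without overlap (difference -0.35 ± 0.24 SE, limma adjusted p = 0.237). In Samarkand prepupae replicate 1 read 12.16 and the other arrays 10.75 and 10.77, against 11.17, 10.74 and 10.83 in Canton-S. That array set the prepupal difference, which was 0.32 ± 0.24 with it and -0.15 without it (adjusted p = 0.28 and 0.325), and without it the larval difference passed (adjusted p = 0.0147), as it did in the fit of the 6 larval arrays (adjusted p = 0.00703). LanA, a laminin chain, differed by -0.03 ± 0.06 in larvae and 0.02 ± 0.06 in prepupae, with overlapping arrays (limma adjusted p = 0.683 and 0.798). With median centring LanA passed at both stages (-0.60 in larvae and -0.49 in prepupae, adjusted p = 2.23e-06 and 2e-05), as did larval alpha-Spec (-0.59, adjusted p = 0.023). With a common spread added to the centring none of these passed, and prepupal LanA was -0.078 (adjusted p = 0.238). In the GATOR complexes, which relay amino acid supply to the kinase TOR, the named members mio and Wdr24 were not called at either stage. Their differences ran from -0.13 to -0.11 in larvae and from -0.11 to -0.06 in prepupae. In larvae mio passed in the fit of the 6 arrays (adjusted p = 0.0233) and Wdr24 with median centring (adjusted p = 0.0256).

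The remaining 4 named transcripts were called at 1 stage, at both or at neither. The transcript of fend (forked end), a gene known for a role in motor axon growth, was lower in Samarkand at both stages. It read 10.42, 10.22 and 10.25 in Canton-S and 9.96, 9.95 and 10.01 in Samarkand larvae (-0.32 ± 0.10 SE, limma adjusted p = 0.0131). In prepupae the arrays were again apart, with 10.72, 10.22 and 10.31 against 10.06, 10.10 and 10.08 (-0.33 ± 0.10, adjusted p = 0.00955). These calls did not hold with median centring (adjusted p = 0.173 and 0.0713). The larval call did not hold without Canton-S larval replicate 1 (-0.26, adjusted p = 0.0731), and its sign turned without scaling (0.24). The prepupal call did not hold without Canton-S prepupal replicate 1 (-0.18, adjusted p = 0.0846), without scaling (-0.034, adjusted p = 0.91) or in the fit of the 6 prepupal arrays (adjusted p = 0.072).

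CG31178 was called in larvae only, CG16974 in prepupae only, and sle at neither. With median centring CG31178 passed in prepupae (-0.29, adjusted p = 0.00185) and between stages (-0.47, adjusted p = 0.00353), and CG16974 passed in larvae (-0.57, adjusted p = 0.000139). CG31178 differed by 0.18 ± 0.07 in larvae (limma adjusted p = 0.0319) and by -0.09 ± 0.07 in prepupae (adjusted p = 0.248). The larval call did not hold with a replicate block (0.15, adjusted p = 0.0625) or in the fit of 12 arrays (adjusted p = 0.0575). Nor did it without Canton-S larval replicate 3 or 4 (adjusted p = 0.0653 and 0.102) or Samarkand larval replicate 3 or 4 (adjusted p = 0.17 and 0.0546). CG16974 differed by -0.26 ± 0.10 in prepupae (limma adjusted p = 0.0412) and by -0.13 ± 0.10 in larvae, and the prepupal call did not hold without Canton-S prepupal replicate 1 (-0.16, adjusted p = 0.227). It did not hold either without scaling (adjusted p = 0.121), in the fit of the 6 prepupal arrays (0.0691), without Canton-S prepupal replicate 3 (adjusted p = 0.0568) or without Samarkand prepupal replicate 1, 2 or 3 (adjusted p = 0.0528, 0.0908 and 0.103). The transcript of sle, a nucleolar protein, differed by 0.02 ± 0.07 in larvae and -0.16 ± 0.07 in prepupae (limma adjusted p = 0.811 and 0.0515). The prepupal arrays of the strains did not overlap. The prepupal difference passed with median centring (-0.67, adjusted p = 1.64e-05), with a common spread added (-0.24, adjusted p = 0.00223) and without scaling (-0.49, adjusted p = 0.0202). It also passed without Canton-S larval replicate 1 (adjusted p = 0.0218).

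Over all 16 named transcripts, 4 were called in larvae (against 48.1% of all transcripts), 2 higher and 2 lower in Samarkand, and 5 in prepupae (against 51.7%), all lower. Their median difference was -0.12 in larvae and -0.15 in prepupae, against 0.02 and 0.01 over all transcripts. By class, 2 were called at both stages, 2 in larvae only, 3 in prepupae only and 9 at neither, and 0 of 16 passed the test between stages, where 6.64% of all transcripts did. Of the 28 transcripts listed under several genes, 16 were called in larvae and 17 in prepupae, near the shares of all transcripts (48.1% and 51.7%), 14 of them at both stages with the same sign (34.5% of all transcripts), and 1 passed the test between stages.

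**Figure D3:**
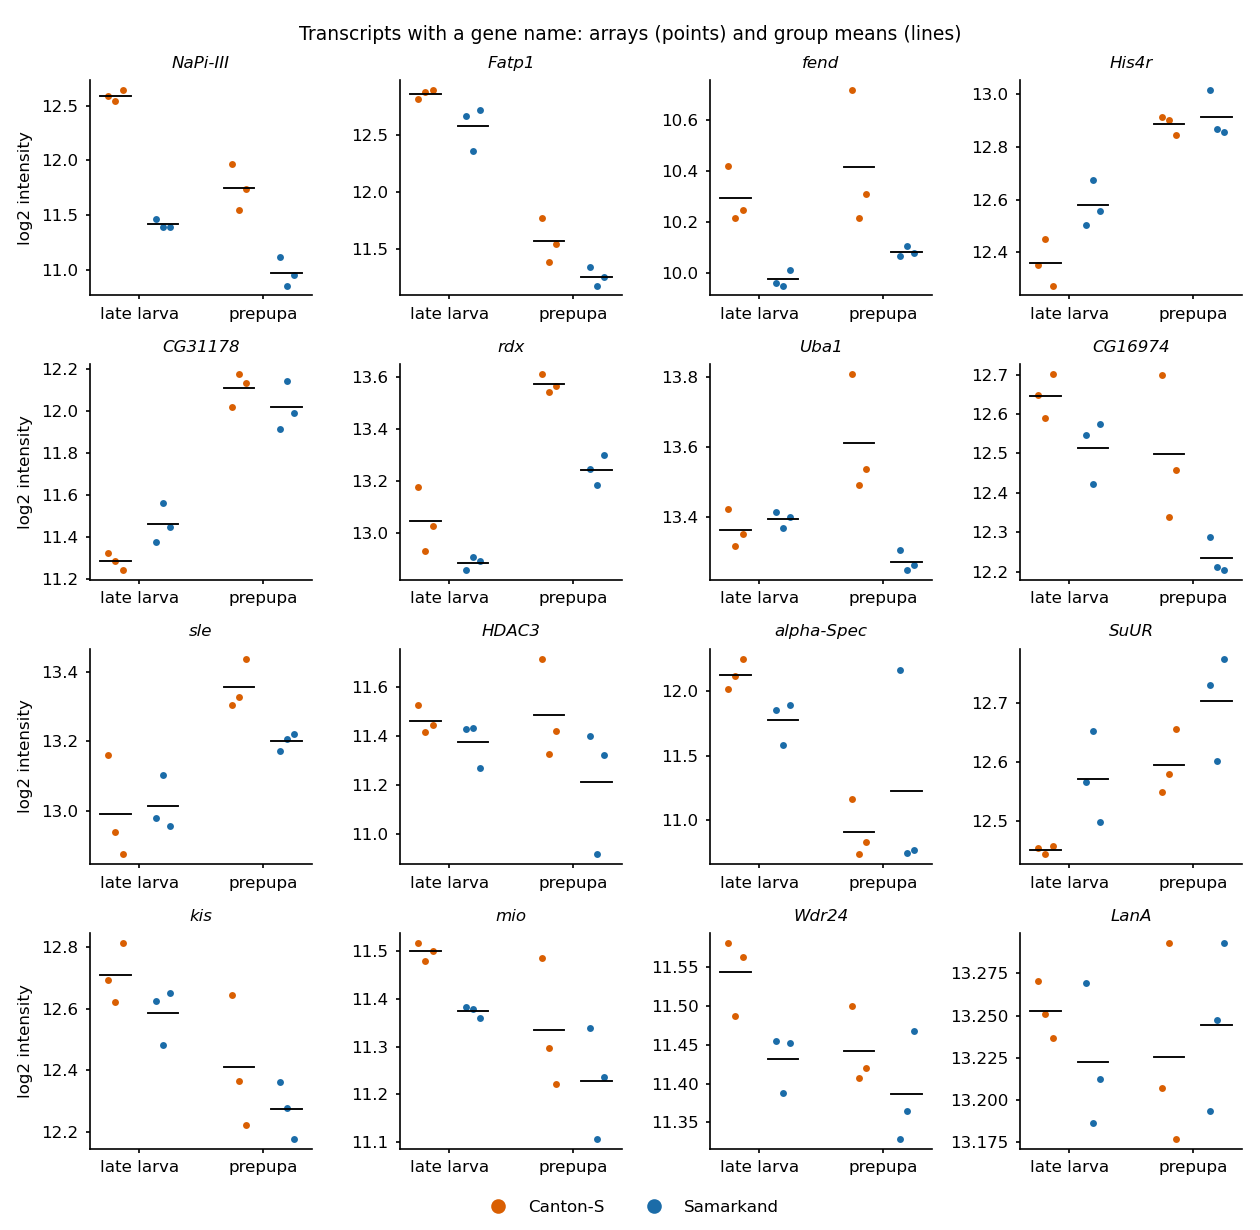
Log2 intensity (vertical axis, scale set for each panel) of the 16 transcripts with a gene name in Canton-S and Samarkand, in late larvae and prepupae. Points are arrays and lines are means of 3 arrays. NaPi-III, fend, Fatp1, rdx and CG16974 are lower in all Samarkand arrays at both stages, though only NaPi-III and fend were called at both. The arrays of Uba1 and sle overlap in larvae and separate in prepupae. The alpha-Spec panel shows 1 Samarkand prepupal array far above the other 2.

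Of the larva-only class 36 reached 2-fold in larvae, 30 lower and 6 higher in Samarkand. FBtr0072090 read 13.30, 13.35 and 13.22 in Canton-S larvae and 10.22, 10.12 and 10.15 in Samarkand larvae (-3.13 ± 0.26 SE, limma adjusted p = 1.46e-08). In prepupae it read 10.33, 10.94 and 10.48 against 10.18, 10.32 and 10.21 without overlap (-0.35 ± 0.26, adjusted p = 0.266; 0.0289 in the fit of 12 arrays). From larva to prepupa the mean differed by -2.71 in Canton-S and by 0.08 in Samarkand, and the larval means of Oregon-R (12.50) and Zimbabwe-109 (13.09) were high as in Canton-S. The change of 2.78 ± 0.36 passed the test between stages (limma adjusted p = 4.87e-05).

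FBtr0076914 had nearly the same size of difference. It read 12.68, 12.92 and 12.78 in Canton-S larvae and 9.70, 9.65 and 9.82 in Samarkand larvae (-3.07 ± 0.12 SE, limma adjusted p = 4.54e-13). Its prepupal values were 9.89, 9.77 and 9.82 against 9.48, 9.50 and 9.69, so that the arrays still did not overlap (-0.27 ± 0.12, adjusted p = 0.0712). In the fit of 12 arrays the prepupal difference passed too (adjusted p = 0.0128), and the change between stages was 2.80 ± 0.17 (adjusted p = 2.33e-09). Oregon-R larvae were low like Samarkand (9.95), and Zimbabwe-109 larvae lay in between (11.67).

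In the other direction, FBtr0076915 read 10.48, 10.62 and 10.40 in Canton-S larvae and 12.15, 11.87 and 12.42 in Samarkand larvae, higher by 1.64 ± 0.17 (SE, limma adjusted p = 4.24e-07; 2.47 with normexp). In prepupae the strains overlapped at means of 10.45 and 10.50. FBtr0089845 read 12.40, 12.31 and 12.42 in Canton-S larvae and 13.90, 14.11 and 13.93 in Samarkand larvae, higher by 1.60 ± 0.20 (limma adjusted p = 2.6e-06). Its prepupal arrays overlapped, with a difference of 0.40 ± 0.20 (adjusted p = 0.0913, 0.0382 in the fit of 12 arrays and 0.0226 without Canton-S prepupal replicate 2). From larva to prepupa the Samarkand mean differed by -1.64 and -1.07 in these transcripts and the Canton-S mean by -0.05 and 0.12. The changes of -1.59 ± 0.25 and -1.20 ± 0.28 passed the test between stages (limma adjusted p = 0.000318 and 0.0107).

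Of the prepupa-only transcripts 33 reached 2-fold in prepupae, 23 lower and 10 higher in Samarkand. FBtr0071341 had the widest gap. In larvae it read 12.13, 12.03 and 11.93 in Canton-S and 11.99, 12.29 and 12.02 in Samarkand, which overlapped (0.07 ± 0.10 SE, limma adjusted p = 0.596). Prepupal values were 13.10, 12.81 and 12.84 in Canton-S and 10.31, 10.16 and 10.20 in Samarkand (-2.69 ± 0.10, adjusted p = 1.71e-13). From larva to prepupa the mean differed by 0.89 in Canton-S and by -1.87 in Samarkand, and the change of -2.76 ± 0.14 passed the test between stages (limma adjusted p = 1.52e-10). Prepupae of Oregon-R stood at 10.23, the same mean as Samarkand, and those of Zimbabwe-109 at 10.90.

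FBtr0075320 was higher in prepupae than in larvae in both strains, by 3.22 in Canton-S and 1.26 in Samarkand. Its larval values were 11.08, 11.13 and 11.21 in Canton-S and 11.35, 11.32 and 11.27 in Samarkand, without overlap (0.17 ± 0.15 SE, limma adjusted p = 0.356). The larval difference passed in the fit of the 6 larval arrays (adjusted p = 0.0142) and without scaling (0.61, adjusted p = 0.0199). In prepupae the arrays were 14.48, 14.28 and 14.32 against 12.57, 12.70 and 12.44, a difference of -1.78 ± 0.15 (adjusted p = 2.2e-08). Canton-S prepupae were also above those of Oregon-R (13.38) and Zimbabwe-109 (12.94).

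FBtr0081314 was the reverse, with Samarkand alone high in prepupae. It read 9.26, 9.24 and 9.27 in Canton-S prepupae and 11.54, 11.98 and 11.45 in Samarkand prepupae (2.40 ± 0.15 SE, limma adjusted p = 2.9e-10). In larvae the values were 11.71, 11.34 and 11.22 against 10.96, 11.08 and 11.34 (-0.30 ± 0.15, adjusted p = 0.108). The larval difference passed without Samarkand larval replicate 4 (-0.41, adjusted p = 0.0497). From larva to prepupa the mean differed by -2.17 in Canton-S and by 0.53 in Samarkand. Oregon-R and Zimbabwe-109 prepupae stood at 9.38 and 9.56. FBtr0073059 read 9.84, 9.82 and 9.87 in Canton-S and 9.92, 9.94 and 9.93 in Samarkand larvae, and 11.86, 12.21 and 12.04 against 13.45, 13.37 and 13.32 in prepupae. From larva to prepupa the mean differed by 2.19 in Canton-S and 3.45 in Samarkand, with a prepupal difference of 1.34 ± 0.14 (limma adjusted p = 3.15e-07). Its change between stages, 1.26 ± 0.20 (adjusted p = 0.000348), was 0.76 with median centring and did not pass without scaling (0.54, adjusted p = 0.423), where the larval difference passed instead (0.65, adjusted p = 0.00734).

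The 191 transcripts with opposite signs were mostly small differences. In 145 of them Samarkand was lower in larvae and higher in prepupae, and in 46 the reverse. Their median size was 0.30 in larvae and 0.28 in prepupae, and 7 reached 2-fold in larvae and 1 in prepupae. With median centring this class held 421 transcripts and without scaling 55. The class called at both stages with the same sign had a median size of 0.36 in larvae and 0.38 in prepupae, and the larva-only and prepupa-only classes 0.30 at the stage of the call.

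After quantile normalization calls were spread over the whole range of levels, and in larvae their direction varied with level. The split by level was not made under the other scalings. Over all levels 53.7% of the larval calls were higher in Samarkand here and 43.3% with median centring. The transcripts were divided into 4 equal parts by mean level over all arrays. In larvae the share of calls that were higher in Samarkand was 42.7% in the dimmest part, 49.4% and 56.8% in the middle parts and 69% in the brightest. In prepupae the 4 shares lay between 51.9% and 53.4%. The share of transcripts called ran from 40.9% to 52.4% in larvae and from 46.6% to 54.4% in prepupae. Of the larval 2-fold differences that were lower in Samarkand, 45 of 98 were in the dimmest part, and in prepupae 31 of 87.

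**Figure D4:**
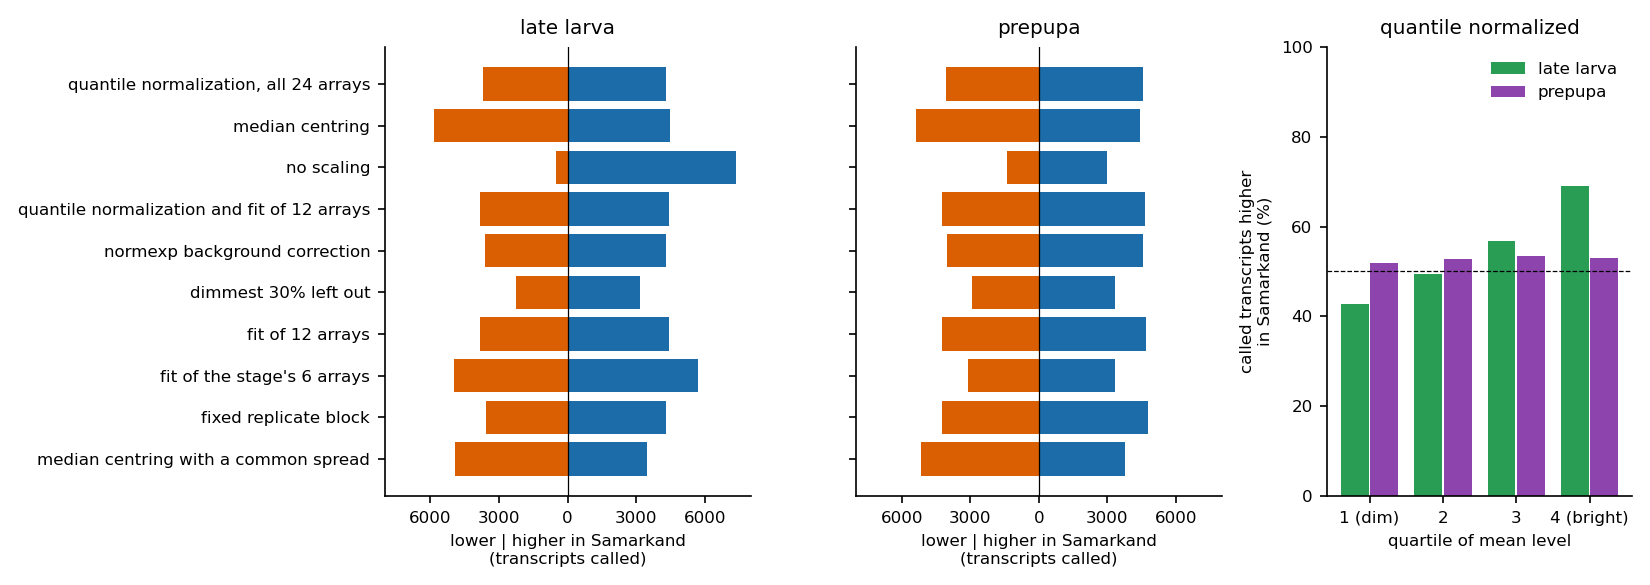
Left and middle, number of transcripts called as higher (blue, to the right) or lower (orange, to the left) in Samarkand under each processing setting, in late larvae and prepupae. Right, share of the called transcripts that were higher in Samarkand (percent) by quartile of mean level, after quantile normalization only. It rises from 42.7% to 69% in larvae and stays between 51.9% and 53.4% in prepupae.

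Of the 4 strains, Canton-S was more often at an end of the range than Samarkand. Over all 16637 transcripts Canton-S had the highest or lowest mean in 73.1% in larvae and 72.4% in prepupae, and Samarkand in 27.3% and 40%. Among the called transcripts the shares were 87.9% and 86.4% for Canton-S and 25.2% and 45.2% for Samarkand. These transcripts, and the 2-fold ones below, were selected for a difference between these strains, which itself favours a place at an end. Of the 56 larval transcripts at least 2-fold higher in Samarkand, Canton-S was lowest of the 4 strains in 50 and Samarkand highest in 41. Of the 98 that were at least 2-fold lower, Canton-S was highest in 79 and Samarkand lowest in 41. In prepupae Canton-S was lowest in 56 and Samarkand highest in 54 of the 62 transcripts at least 2-fold higher. Of the 87 at least 2-fold lower, Canton-S was highest in 72 and Samarkand lowest in 62. Before scaling, log2 intensities were also spread more widely on Canton-S arrays. Their interquartile range was 1.56 ± 0.08 (SD, n = 6), while it was 1.23 ± 0.05 in Samarkand, 1.24 ± 0.03 in Oregon-R and 1.24 ± 0.05 in Zimbabwe-109, and the part of this in the counts was not tested.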

How the data were processed

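Per the labels, whole animals were pooled and total RNA was hybridised to single-colour cy3 NimbleGen arrays. The authors deposited 1 table of array intensity values on a linear scale. RMA is named in the submitters' processing notes, with no version. The deposited medians differed between arrays, so that no common scale was present, and whether background had been subtracted is unknown.

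The log2 of each intensity was quantile normalized across all 24 arrays, with no filter. limma version 3.58.1 in R version 4.3.3 fitted 1 mean for each of the 8 groups (16 residual degrees of freedom) with empirical Bayes moderation. Contrasts gave Samarkand minus Canton-S in larvae, in prepupae, and the change between them. Tests were two-sided, adjusted by Benjamini-Hochberg over 16637 transcripts, threshold 0.05. Errors beside differences are standard errors (SE), and those beside levels are standard deviations (SD) of 3 arrays. Calls describe variation between these arrays. The spread was pooled over the 8 groups, so the SE of a difference was not set by the arrays compared alone. The fit was tested on simulated data.

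Gene names came from a RefSeq gene table of assembly Release 6, which lists 44 of the identifiers among synonyms, 16 under 1 gene and 28 under several, while 16593 were not listed. No build was named for the array, so no coordinates are given. All 16 were described. By identifier, the 2 largest differences in each direction were given per class, among transcripts whose arrays do not overlap and, for the classes called at 1 stage, that passed the test between stages. Of the gene lists, the GATOR list had 2 named members, the lists made of the 16 names had all theirs, and the other lists had none. The comparison, lists and tests were chosen with earlier results of these data known.

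Replicate numbers were the last digit of the sample titles. Deviations of same-numbered Canton-S and Samarkand arrays from their group means correlated across transcripts at 0.15 to 0.62 in 5 of 5 pairs (2 larval, 3 prepupal). Differently numbered pairs ran from -0.54 to 0.33. The highest of these, larval Canton-S replicate 4 with Samarkand replicate 2, was above both same-numbered larval pairs (0.18 and 0.15). Deviations within a group are bound to each other, so these correlations are not independent. They do not settle whether the numbers pair the arrays, and the labels do not state what a number marks. The replicate block was an alternative. Others were median centring, no scaling, normexp background correction (offset 50), a filter that drops the dimmest 30% of transcripts, fits of 12 or 6 arrays, and leaving out each array. Median centring with a common spread was added after seeing the data.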

Additional observations from a re-analysis of the deposited data

Results flagged for a closer look

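The difference between Samarkand and Canton-S itself differed between larvae and prepupae in 1104 transcripts (limma, Benjamini-Hochberg adjusted p under 0.05), of which 81 changed by at least 1 on the log2 scale. Among the transcripts given by identifier, the prepupal minus the larval difference was 2.80 for FBtr0076914, 2.78 for FBtr0072090, 2.70 for FBtr0081314, 1.73 for FBtr0087451 and 1.26 for FBtr0073059. It was -2.76 for FBtr0071341, -1.96 for FBtr0075320, -1.59 for FBtr0076915 and -1.20 for FBtr0089845. All but FBtr0087451 were named on condition that they passed this test, so their passing is no separate finding.

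For FBtr0072463 the change was 1.12 ± 0.31 (SE, limma adjusted p = 0.0307). Without Samarkand prepupal replicate 1 it was 0.67 and still passed. It did not pass with a replicate block (adjusted p = 0.065), without scaling (0.0812) or in the fit of 12 arrays (0.112). It did not pass either without any 1 of the 6 larval arrays or without Canton-S prepupal replicate 1 (adjusted p from 0.0528 to 0.0714), and the Samarkand larval values lie at the bottom of the scale.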

How the results depend on the processing

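The counts of calls stayed within 1.5 times their values, except as follows. With median centring, 2209 transcripts passed the test between stages, 321 larval differences reached 2-fold and 421 had opposite signs. Without scaling, 4381 were called in prepupae, 205 passed between stages, 498 larval differences reached 2-fold, and the classes held 2878 (both, same sign), 55 (opposite signs), 4944 (larva only) and 1448 (prepupa only). With normexp 632 larval and 657 prepupal differences reached 2-fold. With the dimmest 30% left out, fewer transcripts were tested, and 713 passed between stages, 90 and 97 reached 2-fold and 1303 were larva only. With 1 array left out, which also lowers the sample number, the counts ran from 6174 to 8494 in larvae, 7059 to 8533 in prepupae, 693 to 1214 between stages, 136 to 175 and 127 to 172 at 2-fold, 4749 to 5609 for both, 134 to 210 for opposite signs, 1284 to 3059 for larva only and 1838 to 3611 for prepupa only. The cause of the other shifts was not tested.

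The sign of some differences turned. With median centring these were, in larvae, Uba1 (-0.55), SuUR (-0.26), sle (-0.51), His4r (-0.14) and FBtr0071341 (-0.18), and in prepupae LanA (-0.49), SuUR (-0.27) and His4r (-0.43). Without scaling they were, in larvae, fend (0.24), mio (0.24), Uba1 (-0.15), HDAC3 (0.29), sle (-0.10), Wdr24 (0.23) and FBtr0081314 (0.078), and in prepupae mio (0.074), LanA (-0.31), SuUR (-0.093), His4r (-0.25), Wdr24 (0.11) and FBtr0076914 (0.050). With a common spread they were larval sle (-0.04) and FBtr0073059 (-0.11) and prepupal LanA (-0.078), His4r (-0.078) and FBtr0076915 (-0.013). With 1 array left out the ranges crossed 0 for larval sle (-0.037 to 0.11) and FBtr0071341 (-0.025 to 0.12), for prepupal alpha-Spec (-0.15 to 0.55), LanA (-0.0055 to 0.053), His4r (-0.023 to 0.057) and FBtr0076915 (-0.069 to 0.21), and for the change of fend between stages (-0.11 to 0.14). Of these differences only larval His4r and larval fend had been called.

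With the replicate block 7843 transcripts were called in larvae, 9009 in prepupae and 1165 between stages, larval HDAC3 turned to 0.002, and beside the calls given above it changed no other call of a named transcript. Some calls were gained with 1 array left out: prepupal Fatp1 without Canton-S prepupal replicate 2 or Samarkand larval replicate 3 (adjusted p = 0.0258 and 0.0464), prepupal sle without Canton-S larval replicate 4 or Samarkand larval replicate 3 (0.0411 and 0.0481), and the change between stages of CG31178 without Samarkand prepupal replicate 2 (0.0333) and of FBtr0072541 without Canton-S prepupal replicate 1 (0.0155). Of the calls of named transcripts gained with median centring, those of larval Fatp1, larval rdx and prepupal sle also passed with a common spread added. Their limma adjusted p was then 0.0193, 0.00122 and 0.00223. The other calls gained with median centring, at a stage or between stages, did not pass with the common spread. The low levels near the bottom of the arrays limit the folds of FBtr0072463, FBtr0072541 and FBtr0080868.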

Other observations

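Transcripts with a strong stage change in the other strains were examined after the values had been seen. In both Oregon-R and Zimbabwe-109, 220 transcripts fell at least 2-fold from larva to prepupa and 80 rose at least 2-fold. Of the 220, 56 were called between Samarkand and Canton-S in larvae (25.5%, against 48.1% of all transcripts) and 77 in prepupae (35% against 51.7%). Differences of at least 2-fold were found in 5 of them in larvae (2.27% against 0.926%) and in 14 in prepupae (6.36% against 0.896%). Of the 14, 10 were lower in Samarkand, against 87 of 149 over all transcripts. Of the 80 that rose, 24 were called in larvae (30%), 14 higher and 10 lower in Samarkand. In prepupae 21 were called (26.2%), 5 higher and 16 lower, where 4067 of 8609 calls over all transcripts were lower. Differences of at least 2-fold were found in 0 of the 80 in larvae and in 3 in prepupae (3.75%). The median difference was -0.12 in prepupae for the 220 and -0.17 for the 80, against 0.01 for all transcripts.

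The spread between replicates was unequal. The median SD per transcript was 0.05 in Samarkand larvae, 0.07 in Canton-S larvae, 0.08 in Samarkand prepupae and 0.12 in Canton-S prepupae on the log2 scale. Fits of the 6 arrays of a stage, which use that stage's spread alone, called 10666 transcripts in larvae and 6417 in prepupae.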
